A study of Oryza sativa with 35 samples.

Results

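Seedlings of 9311 sampled after 72 h of chilling were compared with 9311 seedlings sampled after 24 h of chilling at the same time of day, with 3 libraries a side. These 6 libraries are 6 of the 35 in the series, and they were chosen by line and timepoint. 9311 is a chilling-sensitive cultivar of Oryza sativa ssp. indica, and the series sets it beside DC90, labelled W9 in the libraries, a near-isogenic line that carries the wild rice locus CTS-12 in the 9311 background. Plants were 30 days old when they were moved to day/night temperatures of 10/8 °C for 3 days, followed by 24 h of recovery under normal conditions, and whole plants were sampled at 0, 12, 24 and 72 h of chilling and at 84 and 96 h. The 72 h and the 24 h group share line, age at the start, temperatures and tissue and differ in the length of the cold. No plants kept warm until 72 h were sampled, so longer chilling and the growth or ageing of the seedlings over the same time cannot be told apart. The study calls the 3 libraries of a group biological replicates, but whether each held 1 plant or a pool is not given in the sources used here. The p-values measure only the spread between libraries of a group, which the test takes from all 12 groups together.

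Chilling of a warm-climate cereal acts in phases. The first hours bring a burst of cold-responsive transcription factors of the DREB1 (CBF) family, which bind the promoters of protective genes, together with abscisic acid (ABA) synthesis and the production of compatible sugars. If the cold persists under light, slowed carbon fixation leaves absorbed light energy in excess, and leaves of sensitive varieties lose chlorophyll, yellow and finally wilt.

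The 72 h libraries held 30581231, 33516129 and 38826289 counts, and the 24 h libraries held 39094891, 35428177 and 40130836 counts, within a range of 28004101 to 68927044 over the series. Replicate 2 of the 72 h group stood apart from its group. Its correlation in log2 CPM, counts scaled to library size, was 0.857 and 0.878 with the other 72 h libraries, which correlated at 0.932 with each other, and its closest library outside the group was a DC90 library at 72 h, at 0.911. Of 20 loci that separate the lines in the other libraries, it lay on the 9311 side for 19, and the 6 libraries lay on that side for 17 to 20. The 72 h group had the widest median spread of the 12 groups, with an SD of 0.542 on the log2 scale, and the 24 h group had 0.423, within a range of 0.228 to 0.542. Counts of changed loci are therefore given again without that library wherever it changes them.

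Of 22961 loci with a mean FPKM (fragments mapped to the locus, scaled for its length and for sequencing depth) of at least 0.5 over the series, 4112 (17.9%) differed between 72 h and 24 h in edgeR's quasi-likelihood test at an adjusted p of at most 0.05. Of these, 1777 (7.74% of the loci tested) were higher at 72 h and 2335 (10.2%) were lower, and 1026 of the higher and 1803 of the lower loci differed by at least 1 on the log2 scale. The median log2 fold change over all loci was -0.01, with quartiles of -0.59 and 0.47. Without 72 h replicate 2, 2311 loci (10.1%) were higher and 3265 (14.2%) lower. The calls borrow the spread of all 12 groups, and with only the 6 libraries in the fit the same test called 0 loci higher and 1 lower, with 4779 at an unadjusted p under 0.05. A transcript can fall in a whole-plant sample because there are fewer cells of a type or because each holds less of it, and fewer cells of a type and less RNA per cell cannot be told apart here.

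**Figure D1:**
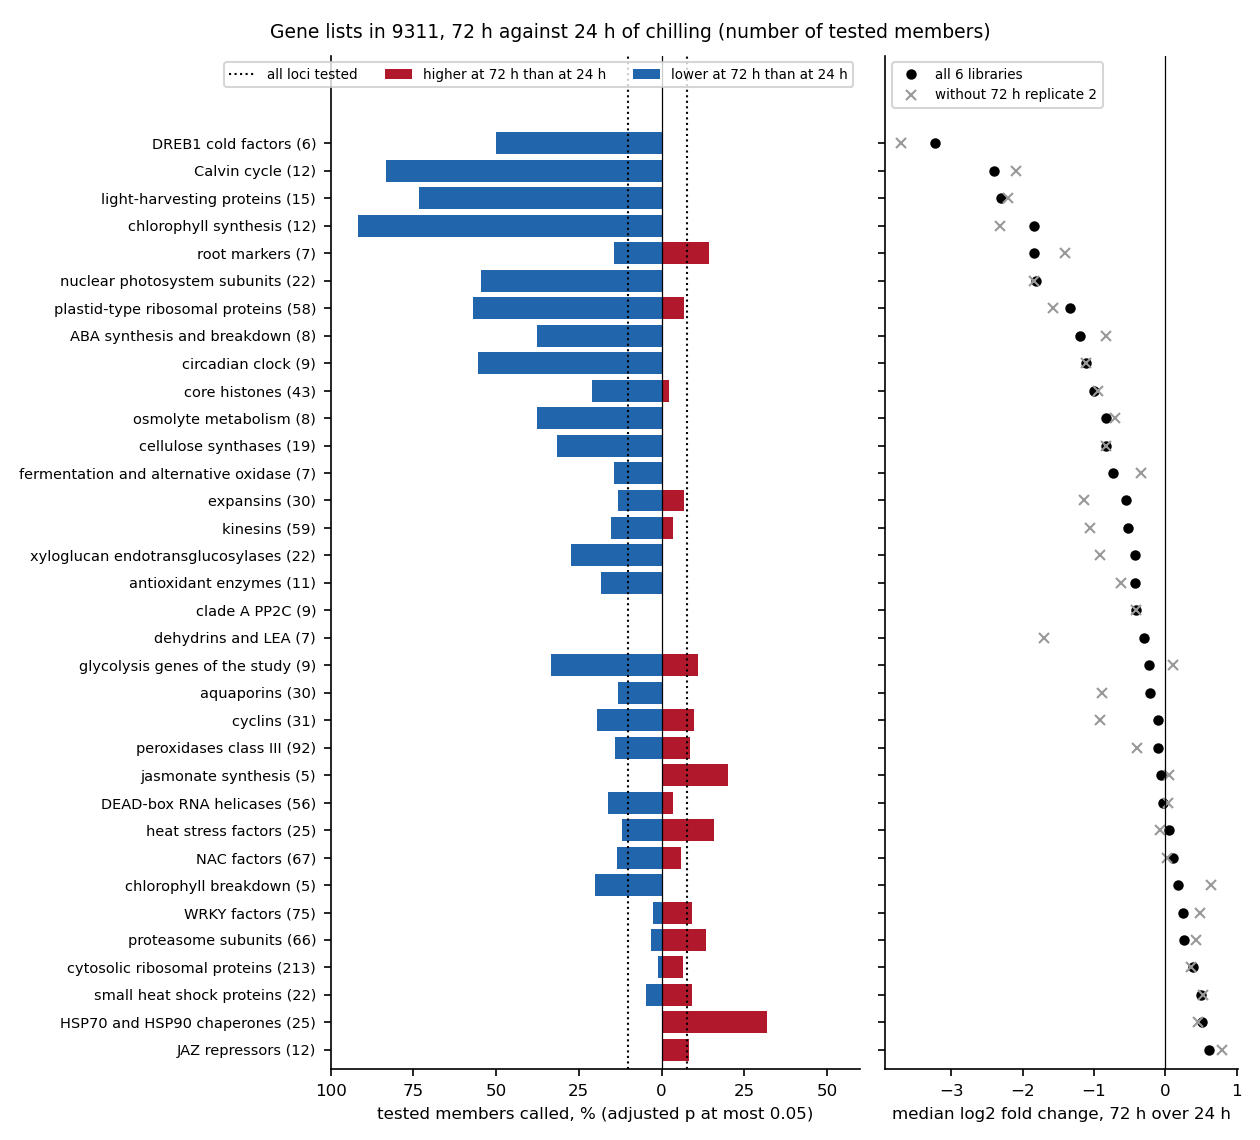
Share of the tested members of each gene list or family that was called higher (red, to the right) or lower (blue, to the left) at 72 h than at 24 h in 9311, in percent, and at right the median log2 fold change with all 6 libraries (circles) and without 72 h replicate 2 (crosses). Dotted lines mark the shares over all loci tested, 7.74% higher and 10.2% lower. Lists of the photosynthetic apparatus have the longest bars to the left, and the HSP70 and HSP90 chaperones the longest to the right.

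The early cold regulators were far below their 24 h level. DREB1A (LOC_Os09g35030), a DREB1 activator of cold-responsive genes, had 2.71, 1.53 and 2.75 FPKM at 72 h, against 58.0, 78.0 and 39.97 FPKM at 24 h, with no overlap between the groups (log2 fold change -4.94, SE 0.69, adjusted p = 0.000186). Its neighbour DREB1B (LOC_Os09g35010) had 2.77, 0.404 and 2.50 FPKM at 72 h, against 12.2, 15.4 and 23.9 FPKM at 24 h (-3.35, SE 1.02, adjusted p = 0.0348), a call that was lost when any of the 6 libraries was left out. DREB1H (LOC_Os09g35020), the third gene of this cluster, was read 6 times over the 72 h libraries and 222 times over the 24 h libraries, which is 2.57% of the 24 h level (exact 95% interval 0.935 to 5.69%, for counting error only). Of 10 DREB1 genes 6 were expressed enough to be tested, all 6 had a fold change below 0 (median -3.23), and 3 passed the test, or 2 without 72 h replicate 2.

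ABA metabolism and protective sugars moved the same way in part. NCED1 (LOC_Os02g47510), one of the dioxygenases that commit carotenoids to ABA, had 2.97, 4.78 and 4.82 FPKM at 72 h, against 28.6, 20.7 and 13.1 FPKM at 24 h (-2.61, SE 0.45, adjusted p = 0.000445). NCED3 (LOC_Os03g44380), of the same family, had 1.83, 1.03 and 1.36 FPKM at 72 h, against 3.85, 3.37 and 4.10 FPKM at 24 h (-1.66, SE 0.40, adjusted p = 0.006). The ABA-degrading hydroxylase ABA8ox1 (LOC_Os02g47470) fell as well, by 2.80 on the log2 scale, so transcripts for both synthesis and breakdown were lower, while NCED4 and NCED5 had fold changes of 0.11 and 0.53 and did not pass. In all, 3 of 8 ABA genes were lower and 0 higher (median -1.20). The clade A protein phosphatases that restrain ABA signalling had 0 of 9 members called with all libraries and 1 lower without 72 h replicate 2. The 7 dehydrin and LEA genes, which encode protective hydrophilic proteins, had 0 called, 1 lower without that replicate, and a median of -0.30 that moved to -1.699. RAB16A (LOC_Os11g26790), a dehydrin induced by water stress, had 74.5 FPKM in 72 h replicate 2 and 3.76 and 6.75 FPKM in the other 72 h libraries, against 21.04, 9.03 and 16.1 FPKM at 24 h, so its groups overlapped and its direction turned on that library.

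Galactinol synthase 2 (LOC_Os07g48830), the entry enzyme of raffinose sugar synthesis, had 9.72, 11.2 and 14.99 FPKM at 72 h, against 133, 114 and 62.9 FPKM at 24 h, with no overlap (-3.41, SE 0.58, adjusted p = 0.000634). Raffinose synthase (LOC_Os01g07530) fell by 2.11 and the trehalose-phosphate phosphatase TPP1 (LOC_Os02g44230) fell by 1.99 on the log2 scale. The other galactinol synthase on the list, LOC_Os03g20120, had 26.1, 26.0 and 32.2 FPKM at 72 h, against 48.8, 65.1 and 33.0 FPKM at 24 h, and did not pass (adjusted p = 0.0971). The proline synthases P5CS1 and P5CS2 had fold changes of -0.14 and -0.56 and were not called. Of 8 osmolyte genes 3 were lower and 0 higher.

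**Figure D2:**
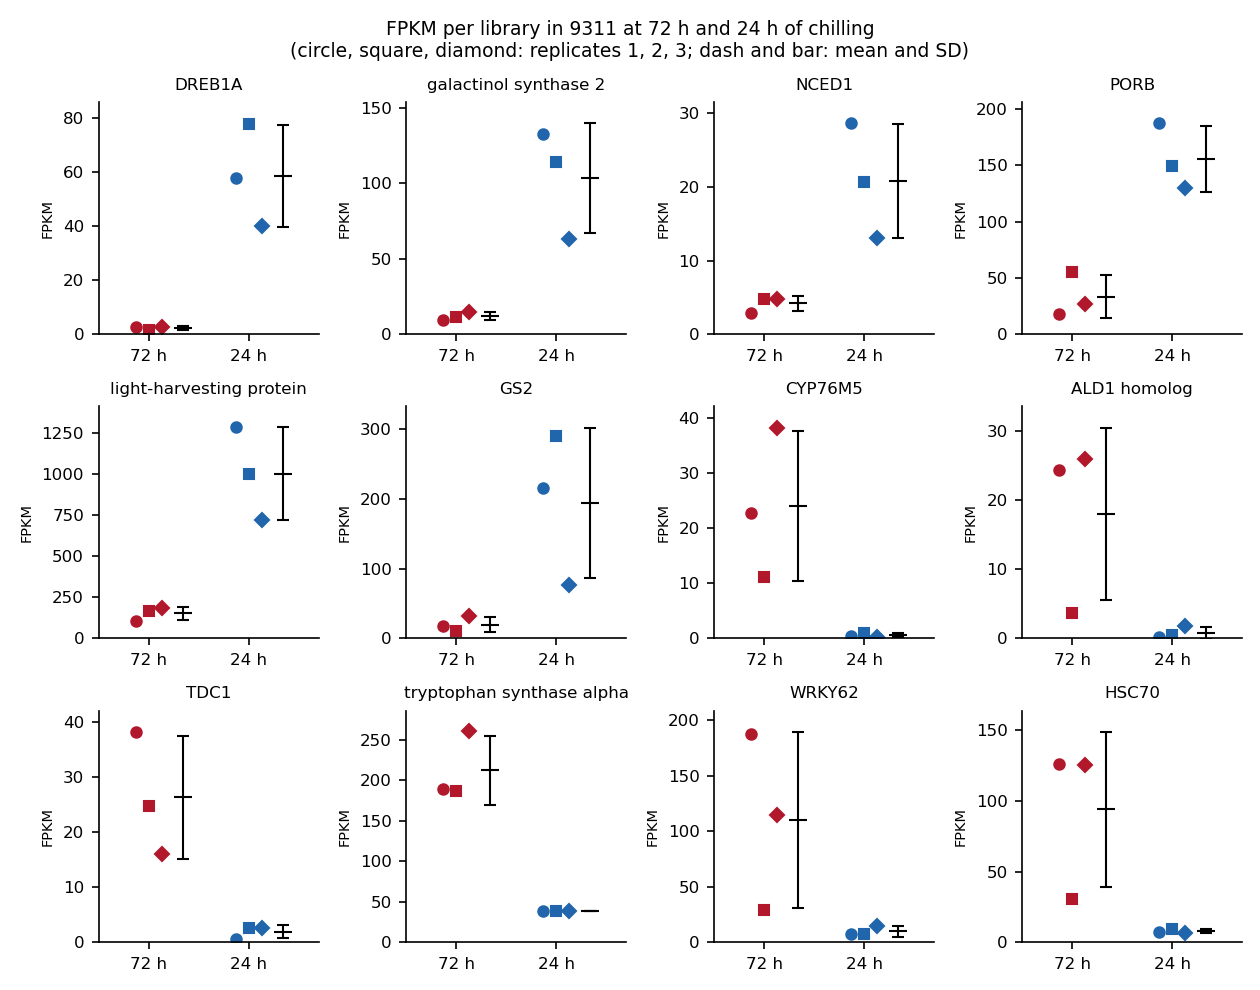
FPKM of 12 loci in each 9311 library at 72 h (red, left) and 24 h (blue, right). Circle, square and diamond are replicates 1, 2 and 3, and the dash and bar are the mean and SD of the 3 libraries. The first 6 loci are lower in all 3 libraries at 72 h and the last 6 higher, and 72 h replicate 2 lies lowest of its group for CYP76M5, the ALD1 homolog, WRKY62 and HSC70.

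The 72 h and 24 h groups compare the circadian clock at 1 time of day only. Pseudo-response regulators repress the morning genes of the clock in turn over the day. Of 9 clock genes 5 were lower at 72 h (55.6%, against 10.2% of all loci) and 0 higher, and the counts were the same without 72 h replicate 2. PRR1 (LOC_Os02g40510) had 51.8, 54.9 and 47.4 FPKM at 72 h, against 105, 112 and 86.1 FPKM at 24 h (-1.28, SE 0.26, adjusted p = 0.0015). PRR95 (LOC_Os09g36220) fell by 1.496, PRR37 (LOC_Os07g49460) by 1.12, PRR73 (LOC_Os03g17570) by 1.11 and LHY (LOC_Os08g06110) by 1.01 on the log2 scale, the last called in 2 of the 6 fits that left out 1 library and the others in all 6. PRR59 (LOC_Os11g05930) had a fold change of 0.20 and did not pass. Clock genes that peak at different times of day thus lay below their 24 h level together, and with 1 time of day compared neither phase nor amplitude can be read.

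Photosynthesis genes fell together. Among the 37 lists and families examined, chlorophyll synthesis, the Calvin cycle and the light-harvesting proteins had the 3 highest shares of members lower at 72 h. Light-harvesting proteins bind chlorophyll in the antennae of the photosystems, and of 15 tested genes 11 were lower and 0 higher (73.3% lower, against 10.2% of all loci; median -2.30). LOC_Os03g39610, an antenna protein of photosystem II by its annotation, had 105, 166 and 183 FPKM at 72 h, against 1282, 1002 and 718 FPKM at 24 h (-3.02, SE 0.35, adjusted p = 1.07e-05). LOC_Os08g33820, annotated as the P4 antenna protein, had 9.07, 20.8 and 40.8 FPKM at 72 h, against 327, 209 and 147 FPKM at 24 h (-3.55, SE 0.53, adjusted p = 0.0002). Summed over the list, the 72 h libraries held 1486, 1167 and 2540 FPKM and the 24 h libraries 10140.5, 7969 and 4485 FPKM, with no overlap. Among the nuclear-encoded photosystem subunits 12 of 22 were lower and 0 higher (median -1.81), or 10 lower without 72 h replicate 2. Photosystem I subunit O (LOC_Os04g33830) fell by 2.43 and the oxygen-evolving enhancer protein 3 (LOC_Os07g36080) by 2.40 on the log2 scale. Antenna and rubisco genes have near-identical copies whose reads the counting may have split between them, so values of single members are uncertain.

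Chlorophyll synthesis fell at nearly every step. Of 12 genes 11 were lower and 0 higher (median -1.85), or 9 without 72 h replicate 2, where the median was -2.31. PORB (LOC_Os10g35370), the light-dependent protochlorophyllide reductase, had 18.6, 55.3 and 26.8 FPKM at 72 h, against 187, 149 and 130.0 FPKM at 24 h (-2.71, SE 0.36, adjusted p = 3.21e-05). The first committed enzyme, HEMA1 (LOC_Os10g35840), fell by 1.64, the magnesium chelatase subunits CHLH, CHLI and CHLD fell by 2.29, 2.70 and 1.73, and the last enzyme, chlorophyll synthase CHLG (LOC_Os05g28200), fell by 1.66 on the log2 scale. The exception by the test was PORA (LOC_Os04g58200), with 24.99, 55.1 and 15.8 FPKM at 72 h, against 181, 132 and 164 FPKM at 24 h (-2.61, adjusted p = 0.0646). Genes of chlorophyll breakdown did not share this pattern. SGR (LOC_Os09g36200), whose protein strips magnesium from chlorophyll, had 72.6, 18.4 and 97.5 FPKM at 72 h, against 26.8, 28.02 and 12.5 FPKM at 24 h, and did not pass with all libraries (1.18, adjusted p = 0.128). Of 5 breakdown genes 1 was lower (NOL, LOC_Os03g45194, -0.84) and 0 higher, and without 72 h replicate 2 the counts were 1 lower and 2 higher.

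Carbon fixation followed the antennae. Of 12 Calvin cycle genes 10 were lower and 0 higher (median -2.40), or 8 lower without 72 h replicate 2. Rubisco activase (LOC_Os11g47970), which keeps rubisco in its active form, had 149, 47.0 and 319 FPKM at 72 h, against 1300.1, 1204 and 770.3 FPKM at 24 h (-2.91, SE 0.66, adjusted p = 0.00551). The 3 small-subunit genes of rubisco on the list fell by 3.43, 3.49 and 3.80. The chloroplast glyceraldehyde-3-phosphate dehydrogenase GAPA (LOC_Os04g38600) fell by 2.36 and sedoheptulose bisphosphatase (LOC_Os04g16680) by 2.09 on the log2 scale. Phosphoribulokinase (LOC_Os02g47020) and fructose bisphosphatase (LOC_Os03g16050) had -2.43 and -0.71 and were not called. The leaf markers moved with these genes. Their summed FPKM was 196, 85.9 and 656 at 72 h, against 4095, 2032 and 1152 at 24 h, and 2 of 3 were lower, or 1 without 72 h replicate 2, but these 2, a rubisco subunit and rubisco activase, also stand on the Calvin list, so the leaf markers are not an independent measure of leaf tissue. The third, the antenna gene LOC_Os01g52240, had FPKM above 0 in 1 library of each group. Summed FPKM of 7 root markers was 45.3, 14.7 and 61.9 at 72 h, against 38.5, 33.7 and 25.5 at 24 h, with 1 higher and 1 lower. Most of the 72 h sum came from the higher one, RSOsPR10, described below. Of the 7 root markers 6 had a fold change below 0 (median -1.84), and 3 lay below their 24 h level with no overlap, beside 9.66% of all loci. In limma on log2(FPKM + 1) the root marker median was -0.31, with 1 higher and 0 lower. The shoot meristem gene OSH1 had 1.14, 3.51 and 1.53 FPKM at 72 h, against 2.17, 1.36 and 2.39 FPKM at 24 h. No marker was at 0 in all libraries of a group, and the part of a changed share of leaf, root or meristem in these results was not tested.

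Proteins of the plastid ribosome are encoded mostly in the nucleus. Of 58 tested nuclear genes for plastid-type ribosomal proteins 33 were lower and 4 higher (median -1.34), or 34 lower and 5 higher without 72 h replicate 2. Plastid S5 (LOC_Os03g34040) had 20.8, 32.3 and 57.1 FPKM at 72 h, against 218, 198 and 109 FPKM at 24 h (-2.55, SE 0.41, adjusted p = 0.000274). Plastid L27 (LOC_Os08g31228) was one of the exceptions, with 94.5, 76.3 and 106 FPKM at 72 h, against 36.9, 34.4 and 45.2 FPKM at 24 h (1.00, SE 0.20, adjusted p = 0.00113). Of 213 cytosolic ribosomal protein genes 14 were higher and 2 lower, or 26 and 2 without 72 h replicate 2, and 30 and 2 in limma. The share higher, 6.57%, was below that of all loci, while 190 of the 213 had a fold change above 0 and the median was 0.39. These genes form families of near-identical copies as well.

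**Figure D3:**
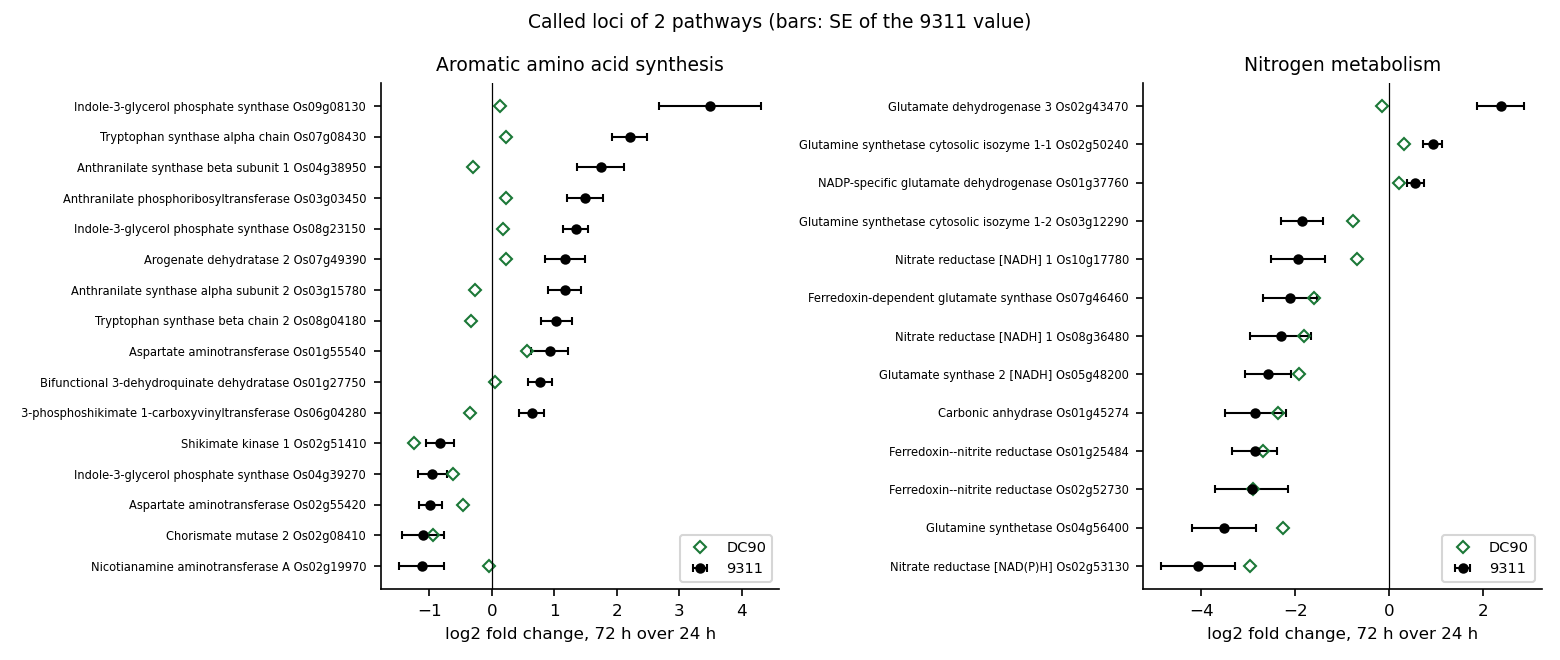
Log2 fold change at 72 h over 24 h of the called loci of aromatic amino acid synthesis (left) and nitrogen metabolism (right), with 9311 as filled circles with the SE and DC90 as open diamonds. Loci of the tryptophan branch lie to the right of 0 in 9311, except LOC_Os04g39270, while DC90 lies near 0. In nitrogen metabolism both lines lie to the left of 0 for the 10 loci that were lower in 9311.

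Genes of nitrate reduction and ammonium assimilation were lower too, with exceptions among the cytosolic and mitochondrial enzymes. Nitrate is reduced to nitrite in the cytosol and to ammonium in the plastid, where glutamine synthetase and glutamate synthase carry it into amino acids. This pathway and the next were picked from the 108 KEGG pathways of the deposited annotation with at least 10 tested loci after their values were seen. Of 26 tested loci in nitrogen metabolism, 10 were lower (38.5%, against 10.2% of all loci) and 3 higher (11.5%, against 7.74%), with a median of -1.49. In limma on log2(FPKM + 1) the median was -0.32, with 10 lower and 5 higher. Chloroplast glutamine synthetase GS2 (LOC_Os04g56400) had 17.8, 10.1 and 31.6 FPKM at 72 h, against 216, 289 and 76.9 FPKM at 24 h (-3.52, SE 0.68, adjusted p = 0.002). The NAD(P)H nitrate reductase (LOC_Os02g53130) had 3.58, 2.83 and 6.53 FPKM at 72 h, against 57.2, 89.96 and 26.0 FPKM at 24 h (-4.06, SE 0.78, adjusted p = 0.00226). Both lay lower in all 72 h libraries than in any 24 h library. The ferredoxin nitrite reductase (LOC_Os01g25484) fell by 2.86, the ferredoxin-dependent glutamate synthase (LOC_Os07g46460) by 2.11 and NADH glutamate synthase 2 (LOC_Os05g48200) by 2.57 on the log2 scale. Without 72 h replicate 2 the ferredoxin-dependent glutamate synthase was no longer called (-1.66, adjusted p = 0.0524), and the counts became 7 lower and 2 higher.

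Within the glutamine synthetases the cytosolic forms parted. The isozyme GS1;1 (LOC_Os02g50240), the main form for nitrogen remobilisation in rice shoots, had 129, 98.3 and 123 FPKM at 72 h, against 43.4, 47.3 and 67.1 FPKM at 24 h (0.92, SE 0.20, adjusted p = 0.00278). The isozyme GS1;2 (LOC_Os03g12290), known in rice for ammonium assimilation in roots, had 7.30, 7.36 and 15.3 FPKM at 72 h, against 38.4, 31.1 and 16.4 FPKM at 24 h (-1.85, SE 0.45, adjusted p = 0.00667). Mitochondrial glutamate dehydrogenase 3 (LOC_Os02g43470), of an enzyme family that releases ammonium from glutamate, had 2.61, 1.60 and 1.75 FPKM at 72 h, against 0.254, 0.350 and 0.329 FPKM at 24 h (2.37, SE 0.50, adjusted p = 0.00232). The groups did not overlap for any of these genes.

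Loci for several steps of tryptophan synthesis were higher at 72 h. The pathway makes anthranilate from chorismate, links it to a ribose phosphate, closes the indole ring and joins it to serine. Of 41 loci annotated to the synthesis of phenylalanine, tyrosine and tryptophan, 11 were higher (26.8%, against 7.74% of all loci) and 5 lower, or 12 and 6 without 72 h replicate 2. The tryptophan synthase alpha chain (LOC_Os07g08430) had 189, 187 and 261 FPKM at 72 h, against 38.2, 38.4 and 38.7 FPKM at 24 h (2.202, SE 0.28, adjusted p = 2.24e-05). The anthranilate synthase subunits rose by 1.16 (alpha 2, LOC_Os03g15780) and 1.74 (beta 1, LOC_Os04g38950), the phosphoribosyltransferase (LOC_Os03g03450) by 1.49 and the tryptophan synthase beta chain (LOC_Os08g04180) by 1.03 on the log2 scale. Indole-3-glycerol phosphate synthase was split among 3 loci. LOC_Os09g08130 had 13.1, 15.4 and 18.03 FPKM at 72 h, against 0.711, 1.704 and 1.63 FPKM at 24 h (3.49, SE 0.82, adjusted p = 0.00798). LOC_Os08g23150 rose by 1.34, and LOC_Os04g39270 fell by 0.95 on the log2 scale. Each of these loci stayed called whichever of the 6 libraries was left out.

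Of 7 loci that act on tryptophan or related amines, 4 were higher and 2 lower. Because of how these loci were chosen, given below, those counts cannot be set beside the 7.74% higher and 10.2% lower of all loci. TDC1 (LOC_Os08g04540), which decarboxylates tryptophan to tryptamine, had 38.1, 24.8 and 16.0 FPKM at 72 h, against 0.619, 2.55 and 2.69 FPKM at 24 h, with no overlap (3.49, SE 0.95, adjusted p = 0.021). The P450 that makes serotonin from tryptamine in rice (CYP71P1, LOC_Os12g16720) had 118, 81.0 and 182 FPKM at 72 h, against 40.1, 54.3 and 32.0 FPKM at 24 h (1.31, SE 0.46, adjusted p = 0.0492). Both tryptamine hydroxycinnamoyltransferases, which couple such amines to cinnamic acids, were higher, by 4.004 for LOC_Os10g23310 and 2.70 for LOC_Os10g23820. Serotonin N-acetyltransferase 1 (LOC_Os05g40260), a step towards melatonin, fell by 1.19 (SE 0.21, adjusted p = 0.000506), and LOC_Os07g25590, annotated as tyrosine decarboxylase 1, fell by 0.82. TDC2 (LOC_Os08g04560) had 4.31, 4.60 and 3.22 FPKM at 72 h, against 1.79, 2.28 and 3.41 FPKM at 24 h, and did not pass (0.45, adjusted p = 0.316). These loci were picked after their values were seen. The calls of TDC1, CYP71P1 and LOC_Os10g23310 each held in 4, 2 and 3 of the 6 fits that left out 1 library.

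A P450 and an aminotransferase homolog were among the 12 largest rises. The cytochrome P450 LOC_Os08g39730, annotated as CYP76M5 of a subfamily with members in diterpenoid phytoalexin synthesis in rice, had 22.9, 11.1 and 38.2 FPKM at 72 h, against 0.489, 0.939 and 0.238 FPKM at 24 h (5.11, SE 0.71, adjusted p = 0.000165). The homolog of the aminotransferase ALD1 (LOC_Os03g09910), which in Arabidopsis starts the synthesis of the immune signal pipecolic acid, had 24.4, 3.63 and 26.0 FPKM at 72 h, against 0.179, 0.502 and 1.78 FPKM at 24 h (4.44, SE 1.14, adjusted p = 0.0181). WRKY62 (LOC_Os09g25070) and WRKY76 (LOC_Os09g25060), neighbouring repressors of rice immunity, rose by 3.32 and 1.80 on the log2 scale. WRKY62 had 187, 28.9 and 115 FPKM at 72 h, against 7.26, 7.14 and 15.2 FPKM at 24 h. Over the family 7 of 75 WRKY genes were higher (9.33%) and 2 lower, near the shares of all loci for the rises, or 9 higher and 4 lower without 72 h replicate 2. The allene oxide synthase AOS2 (LOC_Os03g12500), an enzyme of jasmonate synthesis, rose by 2.28 while the other 4 jasmonate genes did not pass, or 3 of them without 72 h replicate 2. Of 12 JAZ repressors of the jasmonate pathway 8 had a fold change above 0 and 1 was called higher, TIFY11c (LOC_Os03g08320, 1.77). In limma 5 JAZ genes were higher and 0 lower, and 12 WRKY genes higher and 1 lower. Over all loci limma called 3320 higher, beside 1777 in edgeR. The calls of WRKY76, AOS2 and TIFY11c held in 2, 3 and 1 of the 6 fits that left out 1 library. Summed FPKM of 3 infection markers, PR1a, PR1b and PBZ1, was 50.1, 37.7 and 80.6 at 72 h, against 8.75, 11.5 and 14.1 at 24 h, with no overlap and 0 of 3 called. Their fold changes ran from -0.05 to 2.48. Singly, 2 of the 3 lay above their 24 h level with no overlap, as did 19.2% of all loci. The part of an infection of the 72 h plants in these results was not tested.

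Chaperone genes were higher where they were called, with 1 exception among the small heat shock proteins. HSP70 and HSP90 fold new and damaged proteins with ATP, and small heat shock proteins hold unfolded proteins without it. Of 25 tested genes of the first kind 8 were higher (32.0%, against 7.74% of all loci) and 0 lower, or 11 and 0 without 72 h replicate 2. The cytosolic heat shock cognate 70 gene LOC_Os05g38530 had 127, 30.8 and 125 FPKM at 72 h, against 7.19, 9.52 and 6.96 FPKM at 24 h (3.33, SE 0.50, adjusted p = 0.000192). Its relative LOC_Os01g62290 rose by 2.66 and the mitochondrial HSP90-6 (LOC_Os12g32986) by 1.90 on the log2 scale. Of 22 small heat shock proteins 2 were higher (9.09%, near the share of all loci) and 1 lower (4.55%, against 10.2% of all loci). The class I protein LOC_Os03g16020 rose by 2.71, and the class V protein LOC_Os07g33350 had 5.52, 4.87 and 2.92 FPKM at 72 h, against 50.3, 75.1 and 30.0 FPKM at 24 h (-3.84, SE 0.44, adjusted p = 1.32e-05). Of 25 heat stress factors 4 were higher (16%) and 3 lower (12%, near the share of all loci), or 4 and 4 without 72 h replicate 2. The B factors B-1, B-2a and B-2c rose by 1.58, 1.43 and 2.60, and A-4b (LOC_Os01g54550) by 0.94, whereas A-3 (LOC_Os02g32590), C-1b (LOC_Os01g53220) and A-1 (LOC_Os03g63750) fell by 2.25, 1.81 and 0.72 on the log2 scale. Class A factors are activators and class B factors lack the activation motif, and members of class A lay on both sides. Proteasome subunits had 9 of 66 higher (13.6%) and 2 lower (3.03%), or 19 and 3 without 72 h replicate 2, and 18 and 1 in limma.

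Genes of the dividing cell gave mixed results. Core histones package newly made DNA, and of 43 tested 9 were lower and 1 higher (median -0.997), or 11 and 1 without 72 h replicate 2, and 5 lower and 1 higher in limma on log2(FPKM + 1). Histone copies are near-identical, so single members are uncertain. Histone H2A.6 (LOC_Os05g02300) had 5.24, 7.47 and 0.721 FPKM at 72 h, against 24.2, 10.1 and 88.2 FPKM at 24 h (-3.35, SE 0.67, adjusted p = 0.00224). For histone H2B.1 (LOC_Os08g38300) the groups overlapped, with 3.08, 19.5 and 2.09 FPKM at 72 h, against 39.5, 16.4 and 104 FPKM at 24 h, though it was called (-2.93, adjusted p = 0.00637). The mitotic cyclins B1-1, B1-5, B2-1 and B2-2 fell by 2.49 to 2.59 on the log2 scale, with the groups overlapping for B1-1, and of 31 cyclins 6 were lower and 3 higher, or 9 and 2 without 72 h replicate 2, but 2 lower and 3 higher in limma. The 24 h library with the most H2A.6, H2B.1 and cyclin B1-1 was replicate 3. Kinesins, the motors of spindle and cell plate, had 9 of 59 lower and 2 higher, and 23 and 3 without 72 h replicate 2, but 0 lower and 3 higher in limma, so their direction depends on the test and scale. The summed FPKM did not follow the counts of calls. For cyclins it was 273, 310.2 and 256 at 72 h, against 191, 138 and 258 at 24 h, for kinesins 328, 541 and 281 at 72 h, against 368, 247 and 514.5 at 24 h, and for core histones 2806, 3250.0 and 2519 at 72 h, against 2757, 2512 and 4202 at 24 h, all with overlap. Mismatch repair was picked after its values were seen, as the pathway with the highest share of loci higher among the 108. Of its 37 loci 11 were higher (29.7%, against 7.74% of all loci) and 0 lower, or 10 and 0 without 72 h replicate 2. They included the mismatch protein MSH7 (LOC_Os01g08540, 1.21), the subunits 2, 4 and 5 of replication factor C, which loads the sliding clamp, and the small subunit of DNA polymerase delta (LOC_Os03g03650, 1.44), which was not called without 72 h replicate 2 (adjusted p = 0.112). Nucleotide excision repair had 15 of 64 higher and 0 lower, or 15 and 2 without 72 h replicate 2, and replication factor C and DNA polymerase delta serve both pathways.

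Loci for cell wall growth fell in part. Of 22 xyloglucan endotransglucosylases, which cut and rejoin wall polymers, 6 were lower (27.3%, against 10.2% of all loci) and 0 higher. Of 19 cellulose synthases and related proteins 6 were lower (31.6%) and 0 higher. Without 72 h replicate 2 the numbers lower were 4 and 5, and in limma 3 and 1. The expansins, which loosen walls, had 4 of 30 lower (13.3%) and 2 higher (6.67%), near the shares of all loci, 10.2% and 7.74%. Without 72 h replicate 2, 8 were lower and 1 higher, beside 14.2% and 10.1% of all loci. The aquaporin PIP2-7 (LOC_Os09g36930), a water channel of the plasma membrane, had 126, 10.5 and 172 FPKM at 72 h, against 1127, 1528 and 273 FPKM at 24 h (-3.55, SE 0.90, adjusted p = 0.0139). Of 30 aquaporins 4 were lower (13.3%, near the share of all loci) and 0 higher, or 7 and 0 without 72 h replicate 2.

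The 12 largest falls among the 2247 loci that were called, averaged at least 5 FPKM and did not overlap began with LOC_Os03g57149, annotated as a mitochondrial transcription termination factor. It was read 1, 1 and 1 times at 72 h, against 1302, 894 and 652 times at 24 h, so the 72 h level was 0.1% of the 24 h level (exact 95% interval 0.0207 to 0.294%). Over the series, at most 3 reads were found in 2 DC90 libraries and in 3 9311 libraries, which are those at 72 h. After it and DREB1A came LOC_Os03g30640 of unknown function (-4.87) and a pair of neighbouring cysteine-rich receptor-like kinases, LOC_Os07g43570 and LOC_Os07g43560, at -4.84 each. LOC_Os07g43570 had 2.12, 0.586 and 3.25 FPKM at 72 h, against 58.6, 63.2 and 18.2 FPKM at 24 h. The transporter NPF4.3 (LOC_Os12g12934) had 0.302, 0.480 and 0.561 FPKM at 72 h, against 14.6, 11.7 and 4.64 FPKM at 24 h (-4.79, SE 0.40, adjusted p = 3.49e-07). The kinase inhibitor SMR4 (LOC_Os03g60760), of a family that restrains cell division in Arabidopsis, had 0.412, 1.01 and 0.567 FPKM at 72 h, against 11.05, 11.7 and 13.4 FPKM at 24 h (-4.29, SE 0.59, adjusted p = 6.32e-05). The other 5 were LOC_Os04g34600 (-4.71), the wax-related ketoacyl-CoA synthase 12 (LOC_Os03g26530, -4.22), CYP78A9 (LOC_Os09g35940, -4.15), LOC_Os10g08780 (-4.09) and the HEC1 transcription factor (LOC_Os09g28210, -4.07). All but LOC_Os10g08780 stayed called whichever of the 6 libraries was left out.

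The 12 largest rises were less even than the falls between libraries. The first by fold, the P450 LOC_Os01g41800 (7.94), rested on 72 h replicate 2 alone, with 30.3 FPKM there and 0.0467 and 0.0273 FPKM in the other 72 h libraries, against 0.0256, 0.0214 and 0 FPKM at 24 h, and without that library its fold change was 0.47 (adjusted p = 0.905). CYP76M5, the ALD1 homolog, TDC1 and LOC_Os10g23310 are described above. LOC_Os12g36830, the root marker RSOsPR10, had 30.1, 9.28 and 47.3 FPKM at 72 h, against 0.921, 1.83 and 1.24 FPKM at 24 h (4.17, adjusted p = 0.0279), and was called in 1 of the 6 fits that left out a library. The other 6 had no described function in the deposited annotation. They were LOC_Os04g06520 (4.99), LOC_Os02g09660 (4.16), LOC_Os08g25850 (3.93), LOC_Os10g42020 (3.78), LOC_Os08g26520 (3.66) and Oryza_sativa_newGene_844 (3.50), a locus added by the authors, which had 14.9, 7.12 and 23.2 FPKM at 72 h, against 1.11, 1.36 and 0.839 FPKM at 24 h. Over all loci, 4417 (19.2%) had every 72 h library above every 24 h library in FPKM and 2217 (9.66%) had every 72 h library below.

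Other lists had few called members. Of 11 antioxidant enzyme genes 2 were lower (18.2%, against 10.2% of all loci) and 0 higher, or 3 and 0 without 72 h replicate 2, the 2 being the chloroplast ascorbate peroxidases APX5 (LOC_Os12g07830) and APX8 (LOC_Os02g34810, -1.71), and of 7 genes for fermentation and the alternative oxidase 1 was lower, ADH2 (LOC_Os11g10510, -2.43). NAC factors, a family of stress and senescence regulators, had 4 of 67 higher (5.97%) and 9 lower (13.4%), beside 7.74% and 10.2% of all loci. Without 72 h replicate 2 the counts were 6 and 6, and limma called 12 higher and 5 lower. The DEAD-box RNA helicases had 2 of 56 higher (3.57%) and 9 lower (16.1%), or 4 and 8 without 72 h replicate 2. Their median of -0.03 turned to 0.19 in limma. The class III peroxidases had 8 of 92 higher (8.7%) and 13 lower (14.1%), near the shares of all loci, with a median of -0.10 that turned to 0.01 in limma.

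Several genes that the study discusses by locus were measured here. LOC_Os01g06660, a pyruvate decarboxylase by the deposited annotation, had 23.8, 17.7 and 28.6 FPKM at 72 h, against 7.44, 7.44 and 8.77 FPKM at 24 h (1.33, SE 0.36, adjusted p = 0.0121). Pyrophosphate-dependent phosphofructokinase (LOC_Os06g22060) fell by 1.40, and enolase (LOC_Os06g04510) fell by 1.22 on the log2 scale with all libraries and was not called without 72 h replicate 2 (adjusted p = 0.142). Of the 9 glycolysis and fermentation genes on that list 3 were lower and 1 higher, or 2 and 1 without 72 h replicate 2. The 4-coumarate-CoA ligase-like LOC_Os01g67540 was read 0 times at 72 h and 357 times at 24 h, which puts its 72 h level at no more than 0.989% of the 24 h level (exact 95% interval). These loci carry other names in the study than in the deposited annotation for some IDs, and the annotation is followed here.

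**Figure D4:**
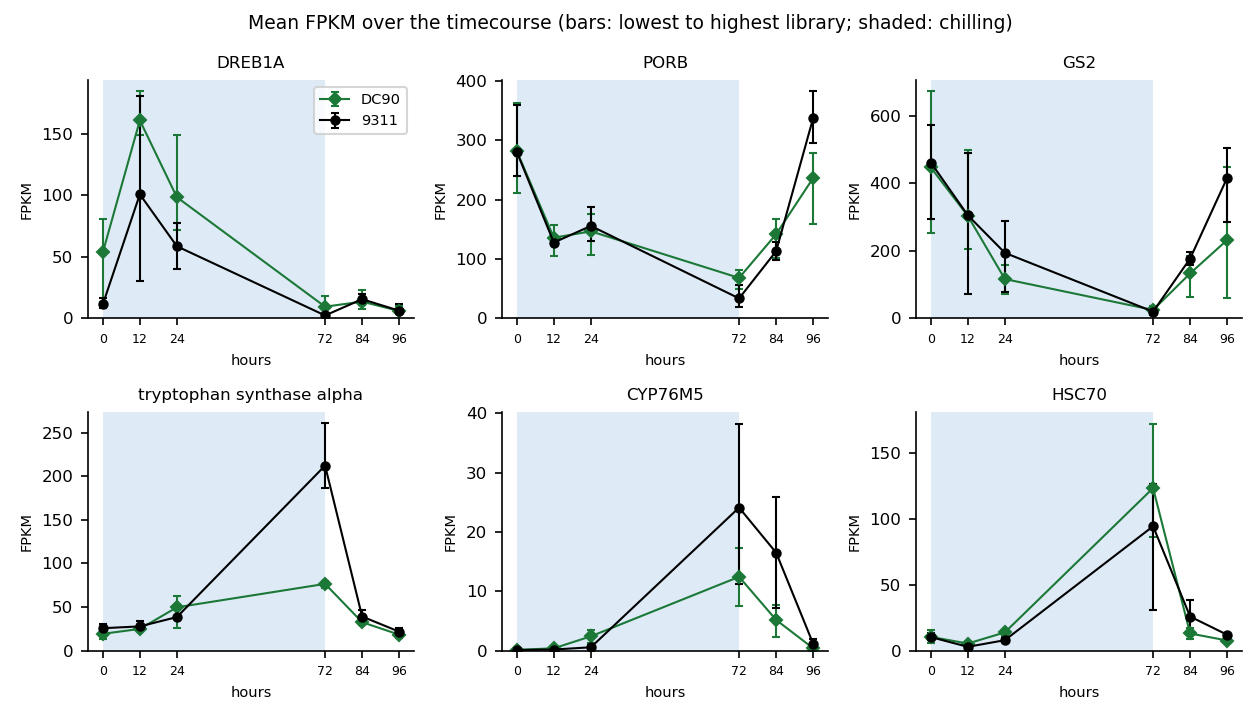
Mean FPKM of 6 loci over the 6 timepoints in DC90 (green diamonds) and 9311 (black circles), with bars from the lowest to the highest library and the chilling period shaded. In 9311 DREB1A, PORB and GS2 have their lowest mean at 72 h, and tryptophan synthase alpha, CYP76M5 and HSC70 their highest.

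The other timepoints of 9311 show where the 72 h level stood in the whole course. DREB1A averaged 11.3, 101, 58.6 and 2.33 FPKM at 0, 12, 24 and 72 h and 15.6 and 6.22 FPKM at 84 and 96 h, so its 72 h level was also below that before chilling. Summed over the light-harvesting list, FPKM was 24881 ± 1887, 10766 ± 3607, 7532 ± 2853 and 1731 ± 718 at 0, 12, 24 and 72 h, 1291 ± 473 at 84 h and 32890.2 ± 9237 at 96 h, each with the SD over 3 libraries, or over 2 at 84 h. Summed over the chlorophyll synthesis list, FPKM was 307 ± 104 at 72 h, 980.5 ± 244 at 84 h and 2727 ± 869 at 96 h. The 12 h and 84 h samples fell at another time of day than those at 0, 24, 72 and 96 h. At 84 h recovery and time of day therefore cannot be told apart, and whether one list returned sooner was not tested. The tryptophan synthase alpha chain averaged 25.7, 27.8, 38.4 and 212 FPKM at 0, 12, 24 and 72 h and 39.1 and 21.7 FPKM at 84 and 96 h, a level of its own at 72 h. HSC70 (LOC_Os05g38530) averaged 10.2, 2.86, 7.89 and 94.2 FPKM at 0, 12, 24 and 72 h and 25.8 and 12.0 FPKM in recovery. Histone H2A.6 averaged 217, 93.8, 40.9 and 4.48 FPKM at 0, 12, 24 and 72 h and 289.6 and 259 FPKM in recovery. These means are descriptions, and only 72 h against 24 h was tested.

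**Figure D5:**
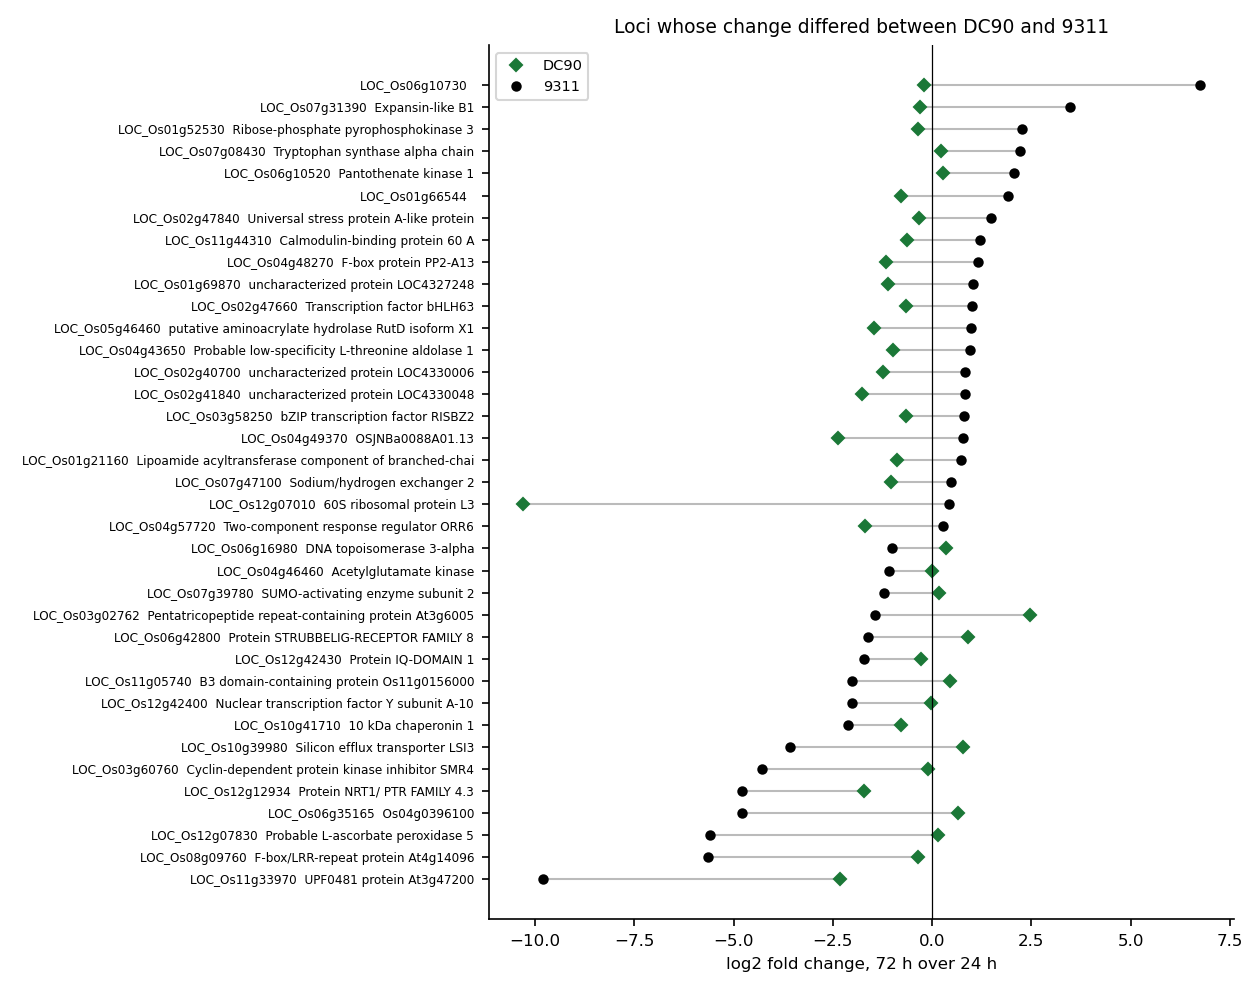
Log2 fold change at 72 h over 24 h in DC90 (green diamonds) and 9311 (black circles) for the 37 loci whose change differed between the lines at an adjusted p of at most 0.05. For 16 loci the DC90 value lies to the right of the 9311 value and for 21 to the left. The 2 points farthest to the left are LOC_Os12g07010 in DC90, which rests on 1 DC90 library at 24 h, and LOC_Os11g33970 in 9311.

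In DC90 the same contrast called 918 loci higher and 1657 lower, beside 1777 and 2335 in 9311. Whether a locus changed more in one line than in the other was tested as a difference of the 2 changes, which 37 loci (0.161%) passed at an adjusted p of at most 0.05, with 2377 at an unadjusted p under 0.05. Without 9311 72 h replicate 2 the same test passed 366 loci. For DREB1A the change was -3.76 in DC90 and -4.94 in 9311, and for PORB -1.58 in DC90 and -2.71 in 9311, and neither difference passed (adjusted p = 0.751 and 0.42). For the light-harvesting list the median was -1.80 in DC90 and -2.30 in 9311 with 0 of 15 differences called, and for Calvin cycle genes it was -1.79 in DC90 and -2.40 in 9311 with 0 of 12 called.

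Tryptophan synthase alpha was 1 of the loci that passed. It had 78.8, 79.4 and 71.4 FPKM at 72 h in DC90, against 60.6, 62.4 and 26.0 FPKM at 24 h, a log2 change of 0.23 in DC90 beside 2.202 in 9311 (difference -1.97, SE 0.40, adjusted p = 0.0349). The other loci of the tryptophan branch lay between -0.34 and 0.23 in DC90 but for LOC_Os04g39270 at -0.63, and their differences did not pass on their own (adjusted p = 0.0977 for LOC_Os08g23150 and higher for the rest). Among the other loci that passed were enzymes of nucleotide and cofactor supply, and a link between them and the tryptophan branch was not tested. Ribose-phosphate pyrophosphokinase 3 (LOC_Os01g52530), which makes the ribose donor of the tryptophan branch, changed by -0.36 in DC90 and by 2.27 in 9311, and pantothenate kinase 1 (LOC_Os06g10520) by 0.27 in DC90 and by 2.07 in 9311. In the other direction, SMR4 kept 12.2, 10.6 and 13.8 FPKM at 72 h in DC90, against 16.2, 8.29 and 5.16 FPKM at 24 h, so its change was -0.11 in DC90 and -4.29 in 9311. The chloroplast ascorbate peroxidase APX5 (LOC_Os12g07830) changed by 0.14 in DC90, where it had 8.12 to 15.9 FPKM, and in 9311 it was read 4 times over the 72 h libraries and 181 times over the 24 h libraries, 2.1% of the 24 h level (exact 95% interval 0.567 to 5.48%). Its neighbour APX6 is a close relative, and how reads shared between such copies were counted is not given in the sources used here.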

How the data were processed

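Whole seedlings of 9311 and DC90 were sequenced as 35 libraries in 12 groups, and 9311 at 72 h (3 libraries) was compared with 9311 at 24 h (3 libraries). The authors mapped paired-end reads to the rice genome annotation Release 7 with HISAT2 and deposited 1 table with both read counts and FPKM for 57778 loci, 1816 of them added by the authors. The counting tool is not given in the sources used here. The counts are whole numbers without normalisation. The FPKM values do not follow from the deposited counts by depth and length alone, and over the loci tested their fold change lay 0.25 (log2, median) above that of the TMM-normalised counts. Total counts were 28004101 to 68927044 per library, and all 595 pairs of libraries differed in their counts at 28711 loci or more.

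Loci with a mean FPKM of at least 0.5 over the 35 libraries (22961) entered edgeR's quasi-likelihood test (edgeR 4.0.16, R 4.3.3, TMM) in 1 fit of all 12 groups, with Benjamini-Hochberg adjustment of the p-values over those loci. The difference between the changes of the 2 lines was a contrast of the same fit. FPKM values are levels and fold changes come from counts. Intervals for loci with few reads are exact 95% binomial intervals and cover counting error only. Alternatives used DESeq2 1.42.0 and limma 3.58.1 on log2(FPKM + 1). On simulated counts for 22961 loci the test recovered 16 of 50 loci changed by 1 on the log2 scale, 36 of 50 changed by 2, 43 of 50 changed by 3 and 46 of 50 changed by 4, with 8 false calls. The simulation gave each locus 1 spread for all groups and changed a smaller share of loci than the 17.9% called in the data. Its recovered shares and false calls therefore need not hold for the data.

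The comparison and the lists (17 by locus ID, 20 families from words of the deposited annotation, 1100 distinct loci tested) were chosen with earlier results of these data known. Loci named are the 12 largest rises and 12 largest falls among called loci with a mean of at least 5 FPKM and no overlap between the groups, members of the lists with large changes in each direction, loci the study names and, after their values were seen, loci of KEGG pathways and of tryptamine and serotonin metabolism. Motifs in promoters were not analysed here.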

Additional observations from a re-analysis of the deposited data

Results flagged for a closer look

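For 37 of 22961 loci the change from 24 to 72 h of chilling differed between DC90 and 9311 in edgeR's quasi-likelihood test, and 10 of these are given here with the difference on the log2 scale, DC90 minus 9311. The silicon transporter LSI3 (LOC_Os10g39980) had 3.97, 5.82 and 3.15 FPKM at 72 h in DC90, against 1.63, 2.24 and 1.80 FPKM at 24 h, and in 9311 it had 0.0987, 0.0675 and 0.343 FPKM at 72 h, against 2.82, 0.926 and 1.82 FPKM at 24 h (difference 4.35, SE 0.75, adjusted p = 0.0131). The expansin-like gene EXLB1 (LOC_Os07g31390) lay at 0.272 to 0.649 FPKM in all 6 DC90 libraries of the 2 timepoints, and in 9311 it had 4.33, 2.30 and 4.11 FPKM at 72 h, against 0.152, 0.242 and 0.272 FPKM at 24 h (difference -3.77, SE 0.78, adjusted p = 0.0439). The kinase inhibitor SMR4 (LOC_Os03g60760) differed by 4.18 (SE 0.79, adjusted p = 0.0216) and NPF4.3 (LOC_Os12g12934), which changed by -1.72 in DC90 and by -4.79 in 9311, by 3.07 (SE 0.55, adjusted p = 0.0144). Tryptophan synthase alpha (LOC_Os07g08430) differed by -1.97 (SE 0.40, adjusted p = 0.0349). APX5 (LOC_Os12g07830) differed by 5.73 (adjusted p = 0.00749), a fitted value that depends on how the 4 reads of 9311 at 72 h are treated. Ribose-phosphate pyrophosphokinase 3 (LOC_Os01g52530) differed by -2.63 and pantothenate kinase 1 (LOC_Os06g10520) by -1.81. LOC_Os11g33970, of unknown function, differed by 7.47, a fitted value with no reads in 9311 at 72 h and so no bound. LOC_Os12g07010 differed by -10.74, and this locus, annotated as a 60S ribosomal protein L3, had 210.4 FPKM in 1 DC90 library at 24 h and at most 0.0942 FPKM in the other 5 DC90 libraries of these timepoints.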

How the results depend on the processing

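With all 6 libraries 1777 loci were higher and 2335 lower (43.2% of the calls higher), 258 list members were called, and 37 loci differed between the lines. DESeq2 called 2445 higher and 2888 lower, shared 4109 of the 4112 loci, and found 352 differences between the lines. limma on log2(FPKM + 1) called 3320 higher and 1484 lower (69.1% higher), shared 3060 loci, found 100 differences and moved the median of all loci by 0.15. Without the filter 1111 were higher and 22 differed between the lines, and with only the 9311 groups in the fit 938 were higher. With only the 2 groups compared 0 were higher, 1 was lower and 0 list members were called. Asking also for a log2 fold change of 1 or more in size left 1026 higher, and with the study's thresholds of 2 and an adjusted p of 0.001, 41 were higher and 193 lower. Without 9311 12 h replicate 2, which only shares the spread, 63 differed between the lines, and without it and 72 h replicate 2 together, a choice made after seeing the data, 2709 were higher, 3661 lower and 770 differed. Leaving out 1 of the 6 libraries gave 1094 to 2311 higher, 1516 to 3265 lower and 189 to 311 list members, and leaving out 1 library of the 4 groups gave 23 to 366 differences, the most without 9311 72 h replicate 2 and the fewest without 9311 72 h replicate 1. The counts moved by over 1.5 times without 24 h replicate 1 (1094 higher), 24 h replicate 2 (1158 higher) and 72 h replicate 1 (1165 higher and 1516 lower). The replicate block called 1670 higher and 2388 lower, with 27 differences between the lines. Same-numbered libraries deviated from their group means with correlations of -0.09, -0.36 and -0.34, not every library correlated best with its own number, and the numbers were not taken as pairs. Upper-quartile scaling put 52% of the calls higher. Of the values of 139 named loci under the alternatives, 2044 kept their direction and their side of the threshold, 261 were no longer and 21 newly past it with the same direction, and 11, all of loci not called, changed direction. RAB16A (LOC_Os11g26790), at 0.53 with all libraries, was -0.15 in limma and -1.70 without both libraries, and spanned -1.70 (without 72 h replicate 2) to 1.04 when 1 of the 6 was left out. P5CS1 (LOC_Os05g38150) was 0.11 in limma. NCED4 (LOC_Os07g05940) was -0.00495 with the replicate block and spanned -0.37 to 0.46, OSH1 (LOC_Os03g51690) spanned -0.61 to 0.13, and LOC_Os01g52240, with reads in 1 library of each group, -11 to 3.83 when 1 library was left out. The cause of these differences was not tested. On simulated counts 16 of 50 loci changed by 1 on the log2 scale were recovered, and how many such changes were missed in the data was not tested. The search for promoter motifs was not run.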

Other observations

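Photoreceptor and pigment genes outside the lists above also differed at 72 h. Of 24 loci annotated to the circadian rhythm in plants 13 were lower (54.2%, against 10.2% of all loci) and 0 higher, or 11 and 0 without 72 h replicate 2. Among the lower loci were the blue light receptor CRY1 (LOC_Os04g37920), which fell by 2.08, and phytochrome B, which fell by 0.83. Chalcone synthase 1 (LOC_Os11g32650), the entry enzyme of flavonoid synthesis, was also among them and fell by 2.35 on the log2 scale. In carotenoid synthesis the lycopene epsilon cyclase fell by 1.23 and zeta-carotene desaturase by 0.80, while the strigolactone enzyme CCD7 (LOC_Os04g46470) rose by 1.34. The one carbon pool by folate had 6 of 16 loci lower (37.5%) and 0 higher, or 5 and 1 without 72 h replicate 2. The sulfur relay system had 3 of 13 higher (23.1%, against 7.74% of all loci) and 1 lower, or 4 and 2 without that library. Nicotinate metabolism had 4 of 16 higher (25%) and 1 lower. These pathways were picked for their shares after the values were seen, out of 108.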
